A study of Mus musculus with 36 samples.

Results

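MicroRNAs (miRNAs) were compared between kidneys of Pkd1 knockout (KO) and control (WT) mice at postnatal day 3 (P3), the middle of the 3 ages sampled (P1, P3 and P7). The 6 libraries used, 3 WT and 3 KO, are those whose labels give the floxed Pkd1 line and P3, out of 36 libraries of the series. Of 1915 mature miRNAs in the table, 706 had at least 10 counts in at least 3 of the 18 libraries of the Pkd1 line and were tested. WT animals carried floxed Pkd1 alleles without Cre (Pkd1f/f), and KO animals carried the same alleles with a Cre transgene (Pkd1f/f:HoxB7-Cre). Both were of C57BL/6 background, and the controls were littermates of the same age. For comparison, values of the Pkd2 line at P3 are also given, where WT animals were Pkd2f/f and KO animals Pkd2f/f:HoxB7-Cre. The HoxB7 promoter drives Cre in the ureteric bud and the collecting duct derived from it, whereas the RNA came from the kidney, so that deleted cells were sequenced together with cells that kept Pkd1. Pkd1 is a messenger RNA and was not analysed here, and the genotype labels were therefore not checked. The labels number the libraries 1 to 3 in each group without naming animals, litters or sequencing batches, and p-values measure only the spread between these libraries, which may be technical. In RNA of mixed tissue, fewer cells of a type and less of a miRNA per cell cannot be told apart.

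miRNAs are RNAs of about the length of a small interfering RNA that guide Argonaute proteins to messenger RNAs, mostly by pairing through the seed, which here means bases 2 to 8 counted from the 5′ end. Each is cut from an arm of a hairpin, 5p or 3p, and miRNAs that share a seed are grouped in a family with overlapping targets. Many are also markers of a cell lineage. In the kidney, miR-192 and miR-194 are abundant in tubules, the miR-200 family in epithelium, miR-126 in endothelium and miR-143 in smooth muscle, while miR-144, miR-451a and miR-486 are known from red blood cells.

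The mature sequences of the miRNAs on which the results turn are shown first, because miRNAs with the same seed are read together below. They were taken from RefSeq on build GRCm38.p6, in which 588 of the 706 miRNAs tested had an entry, and the capitals mark the seed. The first 4 are members of the miR-99/100 family and miR-501-3p, and were lower in KO by sign. The groups overlapped for all but miR-99b-5p, and miR-99a-5p had a log2 fold change of only -0.25.
miR-99b-5p: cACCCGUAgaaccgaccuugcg
miR-99a-5p: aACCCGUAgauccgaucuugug
miR-100-5p: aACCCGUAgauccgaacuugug
miR-501-3p: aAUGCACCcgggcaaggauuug
The next are the other pair with a shared seed among the lower miRNAs, of the miR-17 family.
miR-17-5p: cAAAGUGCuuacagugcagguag
miR-106a-5p: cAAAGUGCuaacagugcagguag
Those of the erythroid hairpins, which were higher in KO, follow.
miR-144-5p: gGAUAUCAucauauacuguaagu
miR-144-3p: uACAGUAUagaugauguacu
miR-451a: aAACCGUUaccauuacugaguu
The last are miR-202-5p and both miR-7 sequences of the endocrine list, and miR-127-3p and miR-410-3p of the imprinted Dlk1-Dio3 interval. With them are miR-182-5p and miR-21a-5p, which were among the miRNAs the study selected. Of these, the study followed miR-182-5p in further experiments.
miR-202-5p: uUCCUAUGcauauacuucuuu
miR-7a-5p: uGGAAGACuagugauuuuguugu
miR-7b-5p: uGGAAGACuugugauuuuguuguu
miR-127-3p: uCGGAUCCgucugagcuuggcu
miR-410-3p: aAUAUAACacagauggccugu
miR-182-5p: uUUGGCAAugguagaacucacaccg
miR-21a-5p: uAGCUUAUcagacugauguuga

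miR-99b-5p lies at chr17:17830194-17830215 on the plus strand. miR-100-5p lies at chr9:41531437-41531458 on the plus strand, in an intron of 3110039I08Rik and across from an exon of the antisense RNA Gm48742. miR-501-3p lies at chrX:7241270-7241291 on the minus strand, in an intron of the chloride transporter gene Clcn5. miR-144 and miR-451a come from adjacent hairpins on the plus strand of chromosome 11, with the mature sequences between 78073010 and 78073207 and no host gene in the annotation. miR-202-5p lies at chr7:139957732-139957752 on the minus strand and overlaps an exon of Gm2044, a long noncoding RNA. miR-7a-5p has 2 hairpins, 1 in an intron of Hnrnpk on chromosome 13 and 1 with no host gene on chromosome 7, and its reads cannot be assigned to either. miR-182-5p lies at chr6:30165962-30165986 on the minus strand in the hairpin cluster it shares with miR-96 and miR-183.

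The libraries held 12569939 to 27126851 miRNA reads, and 876 to 1184 mature miRNAs had at least 1 read. Levels are given as normalised counts per 1000000 reads (CPM) after scaling by trimmed mean of M values (TMM), with factors between 0.659 and 2.13. The limit of detection, set at 3 counts, was 0.0562 to 0.362 CPM depending on depth and covers counting error only. miR-10a-5p and miR-10b-5p, which are made from Hox gene clusters and are abundant in kidney, together held 57.4%, 63.8% and 37.3% of the reads of the WT libraries and 31.4%, 79.8% and 40.6% of those of the KO libraries. The difference in mean share was -2.25 percentage points (exact two-sided permutation p = 0.9, where 0.1 is the smallest p possible with 3 against 3).

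KO replicates 1 and 2 were most often the extreme libraries and lay farthest from each other. KO replicate 1 was nonetheless close to a WT library. KO replicate 2 was the highest or the lowest of the 6 libraries for 53.7% of the 706 miRNAs and KO replicate 1 for 41.9%, against 21.5% to 32.9% for the other 4. KO replicate 2 also had the fewest reads. The KO library numbered 1 was closer to WT replicate 3 than any other of the 15 pairs of libraries, with a chi-square of 636 per degree of freedom and Pearson's r of 0.995 across the log2 CPM of miRNAs, which are not independent replicates. The next closest pair was WT replicates 1 and 2 with 665 per degree of freedom, and the most distant was KO replicates 1 and 2 with 12806, so none of the libraries repeated another. Some abundant miRNAs were high in WT replicates 1 and 2 and KO replicate 2 and low in the other 3. miR-19b-3p of the miR-17/92 cluster measured 632, 862 and 112 CPM in WT and 79.8, 6871 and 96.7 CPM in KO (log2 fold change 2.13, SE 1.26), and the value of KO replicate 2 alone placed KO above WT.

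None of the 706 miRNAs differed between KO and WT at P3 after Benjamini-Hochberg adjustment of the quasi-likelihood test of edgeR, with a threshold of 0.05 and a smallest adjusted p of 0.202. An unadjusted p under 0.05 was found for 64 miRNAs, 9.07% of those tested. Of these, 50 (7.08%) were higher and 14 (1.98%) were lower in KO, although by sign alone 369 miRNAs (52.3%) were higher and 337 lower, with a median log2 fold change of 0.02. DESeq2 on the same libraries gave an adjusted p under 0.05 for 4 miRNAs, namely miR-99b-5p, miR-501-3p, miR-375-3p and miR-202-5p. With scaling to library totals alone the median of all miRNAs moved to 0.12, and 23 miRNAs were higher and 3 lower at an unadjusted p under 0.05, a share of 88.5% higher against 78.1% with TMM. The study asked of a differentially expressed miRNA that it change 2-fold at an unadjusted p under 0.05, and combined the lists from edgeR and DESeq2. By edgeR alone, that criterion took 43 miRNAs (6.09%), of which 42 (5.95%) were higher and 1 (0.142%), miR-501-3p, was lower. By DESeq2 alone it took 51 of the 706, and the combined list was not formed here. Groups without overlap were found for 84 miRNAs (11.9%). The KO libraries lay wholly above the WT libraries for 47 miRNAs (6.66%) and wholly below for 37 (5.24%).

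The 3 KO libraries contributed unequally to the miRNAs that were higher. Of the 50 with an unadjusted p under 0.05, 31 exceeded every WT library in KO replicate 1, 48 in KO replicate 2 and 50 in KO replicate 3, and the median log2 ratios to the WT mean were 0.40, 1.51 and 1.77. The 14 lower miRNAs were spread more evenly, with 12, 12 and 14 below every WT library and medians of -0.48, -0.42 and -0.72. These miRNAs were chosen by the same libraries, and the numbers only describe which libraries carry them. Without KO replicate 1 the numbers at an unadjusted p under 0.05 were 93 higher and 24 lower, and 7 miRNAs had an adjusted p under 0.05. Without KO replicate 3 they were 16 and 12, and without WT replicate 3 they were 23 and 35. Without KO replicate 2 they were 31 and 57, and with KO replicates 2 and 3 both left out they were 4 and 55. The balance of higher and lower miRNAs therefore depended on which library was used, as the plot of directions by omitted library shows.

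**Figure D1:**
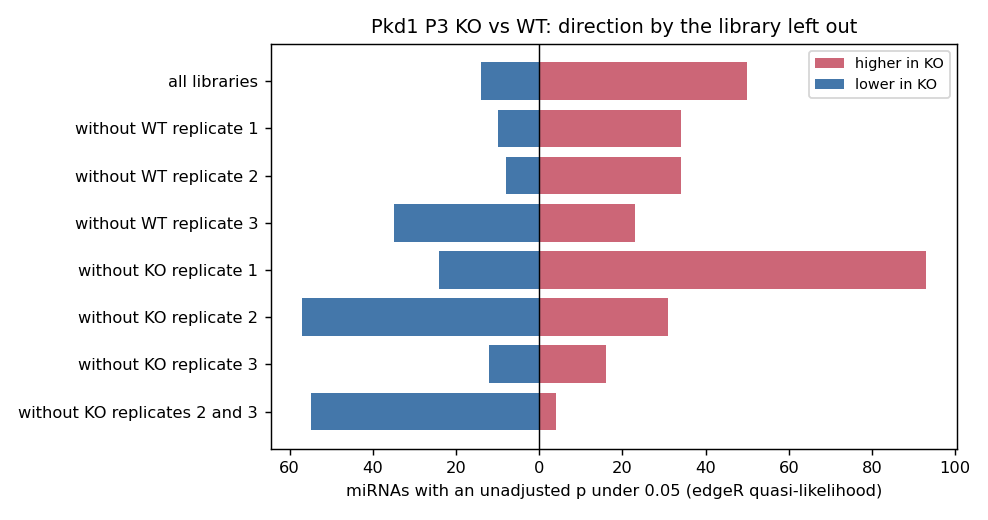
Number of miRNAs with an unadjusted p under 0.05 (edgeR quasi-likelihood test) that were higher (to the right) or lower (to the left) in Pkd1 KO than in WT kidney at P3, with all 6 libraries and with libraries left out. The numbers are 50 higher and 14 lower with all libraries, and lower miRNAs outnumber higher ones without WT replicate 3, without KO replicate 2 and without KO replicates 2 and 3.

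miR-99b-5p, a member of the family that also holds miR-99a and miR-100 and is linked to mTOR signalling, had the smallest p of all miRNAs. It measured 7480, 5213 and 4061 CPM in WT and 3272, 2581 and 2530 CPM in KO. Every KO library was below every WT library, and the means were 5585 ± 1740 CPM in WT and 2795 ± 414 CPM in KO (SD, n = 3 each). The log2 fold change was -0.999 (SE 0.21, unadjusted p = 0.000288, adjusted p = 0.202 by edgeR), and the adjusted p was 0.0027 with DESeq2, 0.00775 by edgeR without WT replicate 3 and 0.0449 by edgeR without KO replicate 1. miR-100-5p, which shares its seed, measured 468, 288 and 188 CPM in WT and 223, 163 and 136 CPM in KO. KO replicate 1 lay above WT replicate 3, and the log2 fold change was -0.85 (SE 0.26, adjusted p = 0.38 by edgeR). Without WT replicate 3 it was -1.20 with an adjusted p of 0.0242 by edgeR. WT replicate 1 was the highest library for both, and without it the log2 fold changes were -0.73 for miR-99b-5p and -0.45 for miR-100-5p, with an adjusted p of 0.713 by edgeR for each. miR-99a-5p differs from miR-100-5p by the single substitution U16A, counted from the 5′ end of miR-99a-5p. It measured 223, 196 and 170 CPM in WT and 166, 173 and 155 CPM in KO, and its log2 fold change was -0.25 (SE 0.16) with overlapping groups. miR-99b-3p, from the other arm of the hairpin, measured 34.4, 24.8 and 30.3 CPM in WT and 39.1, 22.1 and 24.8 CPM in KO (log2 fold change -0.05, SE 0.26).

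miR-501-3p measured 65.9, 47.8 and 22.8 CPM in WT and 14.3, 23.5 and 16.9 CPM in KO. The WT libraries were widely spread, and WT replicate 3 lay just under KO replicate 2. The log2 fold change was -1.32 (SE 0.32, adjusted p = 0.202 by edgeR), the adjusted p was 0.0071 with DESeq2, and without WT replicate 3 it was 0.00775 by edgeR. Without WT replicate 1 the log2 fold change was -0.96, with an adjusted p of 0.713 by edgeR. Its other arm was not lower, since miR-501-5p had 4.70, 2.18 and 2.02 CPM in WT and 2.46, 11.3 and 2.01 CPM in KO. miR-532-5p, from a neighbouring hairpin in Clcn5, measured 119, 101 and 137 CPM in WT and 156, 109 and 141 CPM in KO (log2 fold change 0.18, SE 0.21).

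miR-17-5p, a member of the proliferation-linked miR-17/92 cluster, measured 571, 653 and 481 CPM in WT and 413, 461 and 419 CPM in KO. miR-106a-5p, its paralog on the X chromosome with the same seed, measured 12.8, 14.3 and 10.3 CPM in WT and 8.18, 7.48 and 7.88 CPM in KO. In both, all KO libraries lay below all WT libraries, with log2 fold changes of -0.40 (SE 0.16) and -0.66 (SE 0.21). The sequences of the pair differ by the substitution U10A, and short reads of one can be counted for the other. Of the 12 members of the miR-17/92 cluster tested, 10 were lower and 2 higher, with a median of -0.27. At an unadjusted p under 0.05, 1 member was lower, against 1.98% of all miRNAs. The 2 higher members were miR-19a-3p and miR-19b-3p, both through KO replicate 2.

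A further 8 of the 37 miRNAs that were lower without overlap had an unadjusted p under 0.05 by edgeR. miR-335-3p, from a hairpin in the imprinted gene Mest, measured 951, 849 and 856 CPM in WT and 644, 700 and 560 CPM in KO (log2 fold change -0.48, SE 0.16). miR-148b-3p measured 690, 806 and 626 CPM in WT and 539, 553 and 558 CPM in KO (log2 fold change -0.36). miR-26a-2-3p measured 12.9, 8.60 and 9.65 CPM in WT and 7.59, 7.36 and 6.02 CPM in KO (log2 fold change -0.57). The other 5 of these 8, miR-194-2-3p, miR-196a-2-3p, miR-1968-5p, miR-93-3p and miR-192-3p, had log2 fold changes between -0.84 and -0.42, and the adjusted p by edgeR was 0.407 or more for all 8.

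**Figure D2:**
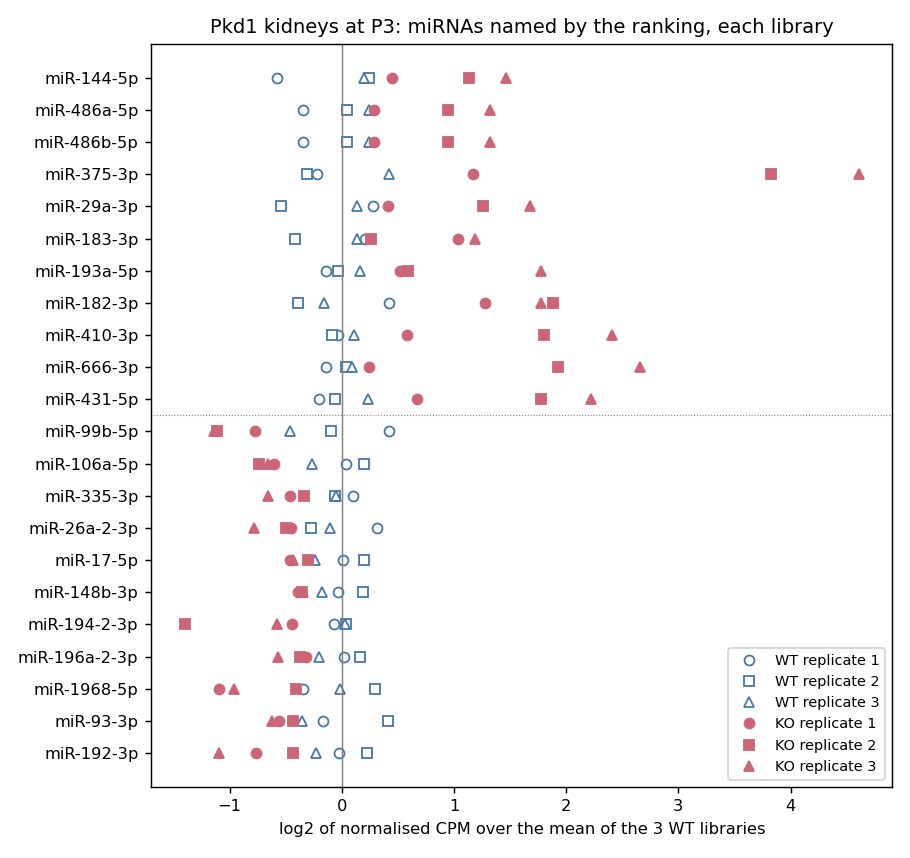
Log2 ratio of the normalised CPM of each library to the mean of the 3 WT libraries, for the miRNAs with the smallest p in each direction among those with a mean of at least 10 counts, an unadjusted p under 0.05 and no overlap (points are single libraries). miR-202-5p is left out because its WT libraries hold no read, and KO replicate 1 lies nearest the WT libraries for several miRNAs that are higher, such as miR-375-3p at 35.0 CPM against 221 and 380 CPM.

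The miRNAs of red blood cells were higher in KO. All 7 tested members of the erythroid list were higher, 5 had an unadjusted p under 0.05 and 5 did not overlap, against 7.08% and 6.66% of all miRNAs, and their median log2 fold change was 0.91 against 0.02 for all miRNAs. These counts hold miR-486a-5p and miR-486b-5p, which share their reads, as separate members, and the median is the value of miR-486a-5p. miR-144-5p measured 10.1, 17.7 and 17.2 CPM in WT and 20.5, 32.9 and 41.4 CPM in KO, so that KO replicate 1 was only just above the WT libraries (log2 fold change 1.08, SE 0.27, adjusted p = 0.202 by edgeR). miR-144-3p, cut from the other arm, measured 12.9, 10.6 and 23.8 CPM in WT and 42.6, 30.2 and 44.5 CPM in KO (log2 fold change 1.31, SE 0.50). miR-486a-5p, which shares its reads with miR-486b-5p and cannot be separated from it, measured 693, 908 and 1039 CPM in WT and 1074, 1700 and 2193 CPM in KO (log2 fold change 0.91, SE 0.23, adjusted p = 0.202 by edgeR). In these 3 miRNAs every KO library exceeded every WT library. miR-451a, which erythroid cells make without Dicer, measured 387, 275 and 190 CPM in WT and 196, 1875 and 406 CPM in KO. Its high value was that of KO replicate 2, and the log2 fold change of 1.54 (SE 0.56) became -0.69 with KO replicates 2 and 3 left out. Without KO replicate 1, miR-144-5p, miR-451a and the miR-486 pair had an adjusted p of 0.0308, 0.0473 and 0.0225 by edgeR.

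The summed level of the erythroid list was 1797, 2122 and 2311 CPM in WT and 2410, 5338 and 4882 CPM in KO. With KO replicates 2 and 3 left out the median log2 fold change of the list was 0.30. None of its defining miRNAs was at 0 in any library, and how much blood the kidneys held was not tested. The leukocyte list was less moved, with 8 of 12 members higher and a median of 0.19. At an unadjusted p under 0.05, 1 member was higher, against 7.08% of all miRNAs. That member was miR-142a-5p, a miRNA of blood cells, which measured 88.1, 95.0 and 135 CPM in WT and 185, 125 and 201 CPM in KO with overlap (log2 fold change 0.69).

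The largest ratios were those of the endocrine list, which holds miR-375, known from pancreatic islets and pituitary, miR-7, known from neuroendocrine cells, and miR-202, known from the gonads. Of 6 members tested, 5 were higher, each with an unadjusted p under 0.05 against 7.08% of all miRNAs, and the median log2 fold change was 3.16 against 0.02. miR-375-3p measured 13.4, 12.5 and 20.8 CPM in WT and 35.0, 221 and 380 CPM in KO. All KO libraries were above all WT libraries, with a mean of 212 ± 173 CPM against 15.6 ± 4.58 CPM (SD, n = 3 each) and the fitted difference was 3.76 on the log2 scale (SE 1.00), with an adjusted p of 0.218 by edgeR, 0.0027 by DESeq2 and 0.0473 by edgeR without KO replicate 1. miR-202-5p had no read in any WT library and 2, 102 and 1141 reads in the KO libraries. Its mean of 11.4 CPM in KO was at least 87.0-fold higher than the level of 0.131 CPM that 3 counts give in the WT library with the highest such level, although the 2 reads of KO replicate 1 are not distinguished from absence (adjusted p = 0.341 by edgeR and 0.0027 with DESeq2).

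Both miR-7 miRNAs followed the same 2 libraries. miR-7a-5p measured 3.47, 6.99 and 2.77 CPM in WT and 2.75, 32.2 and 17.6 CPM in KO (log2 fold change 1.98, SE 0.74). miR-7b-5p was at or under the level of 3 counts in the WT libraries and in KO replicate 1, and measured 7.48 and 4.32 CPM in KO replicates 2 and 3. KO replicate 1 was thus within or below the WT range for miR-7a-5p, and without KO replicates 2 and 3 its log2 fold change was -0.83. Of the passenger arms, miR-7a-1-3p was the 1 member of the list that was lower, with 5.65, 3.84 and 3.54 CPM in WT and 3.27, 3.38 and 3.60 CPM in KO.

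The summed level of the endocrine list at P3 was 22.6, 23.4 and 27.2 CPM in WT and 41.1, 277 and 428 CPM in KO. High levels were also found in WT libraries of the other ages. It was 334, 46.3 and 66.6 CPM in WT and 249, 51.9 and 38.6 CPM in KO at P1, and 63.1, 252 and 192 CPM in WT and 86.9, 124 and 91.3 CPM in KO at P7. WT libraries of the same line thus reached 334 CPM at P1 and 252 CPM at P7, and the spread between them was of the same order as the difference at P3. In the Pkd2 line at P3, the same sum lay between 41.1 and 56.8 CPM in WT and between 46.3 and 50.1 CPM in KO. Which tissue these miRNAs came from was not tested.

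The miRNAs of the imprinted Dlk1-Dio3 interval made up the largest group among those that were higher. This interval of chromosome 12 holds a long array of miRNA hairpins that are expressed from the maternal chromosome together with the noncoding RNAs Meg3, Rian and Mirg, and its miRNAs are plentiful in fetal tissue and brain. Positions were known only for miRNAs with a RefSeq entry. By position between Dlk1, which begins at 109452485, and Dio3, which begins at 110279230, 113 miRNAs of the table fell in the interval and 78 were tested. Of these, 77 were higher and 1 lower in KO, and the median log2 fold change was 1.13. The interval held 27 of the 50 miRNAs that were higher at an unadjusted p under 0.05, none of the 14 that were lower, and 22 of the 47 that were higher without overlap. Of the other 628 miRNAs tested, placed elsewhere or without a position, 23 were higher and 14 lower at an unadjusted p under 0.05, with a median of -0.02. They include miR-376c-3p, miR-485-5p, miR-487b-3p and miR-539-3p, which are listed by name for the interval. The miRNAs of this interval share a locus and libraries and are not independent of each other.

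The values were alike along the interval. The 19 miRNAs within the bounds of Rtl1 had a median log2 fold change of 1.13, the 4 within Rian one of 1.48, the 36 between Rian and Mirg one of 1.11, the 15 within Mirg one of 1.10, and the other 4 one of 1.14. miR-127-3p, antisense to an exon of Rtl1 at chr12:109592888-109592909, was the most abundant, and measured 1570, 1512 and 1683 CPM in WT and 2126, 4291 and 5791 CPM in KO (log2 fold change 1.36, SE 0.56). miR-410-3p, in an exon of Mirg at chr12:109743764-109743784, measured 180, 173 and 198 CPM in WT and 275, 641 and 973 CPM in KO (log2 fold change 1.78, SE 0.64). In both, the 3 WT libraries lay close together, KO replicate 1 lay just above them, and KO replicates 2 and 3 lay far above. The same order was seen in miR-411-5p, which measured 694, 853 and 942 CPM in WT and 1139, 1552 and 2375 CPM in KO, and in miR-431-5p, which measured 34.1, 37.5 and 45.9 CPM in WT and 62.1, 134 and 183 CPM in KO. Both arms of miR-666 were higher, with log2 fold changes of 1.97 for the 5p arm and 1.91 for the 3p arm, and miR-666-5p measured 4.65, 4.24 and 3.84 CPM in WT and 3.73, 20.9 and 25.4 CPM in KO. The exception was miR-409-5p with 11.3, 7.20 and 1.85 CPM in WT and 0.971, 4.47 and 2.54 CPM in KO (log2 fold change -1.41, unadjusted p = 0.0603 by edgeR).

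**Figure D3:**
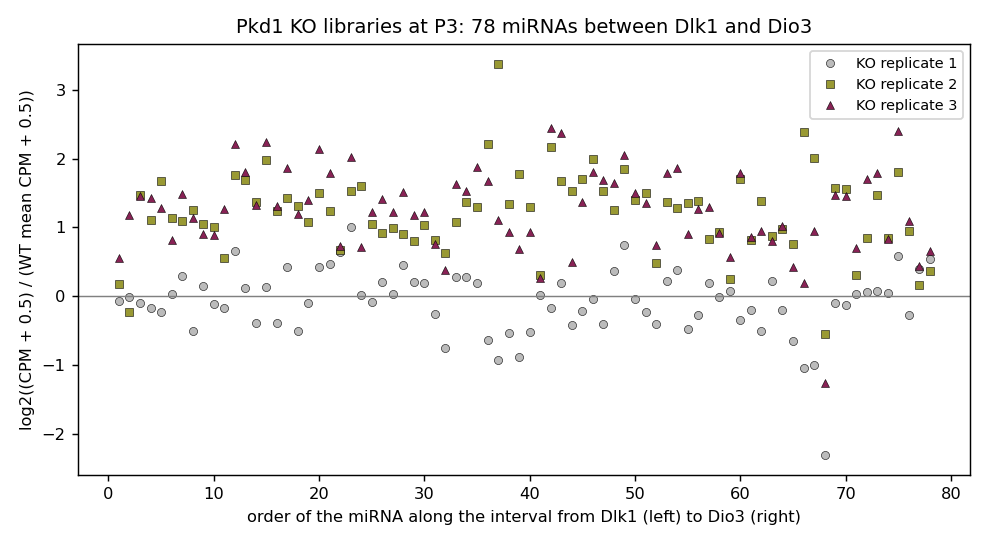
Log2 ratio of normalised CPM to the WT mean (0.5 CPM added to both) in each of the 3 Pkd1 KO libraries at P3, for the 78 miRNAs tested with a RefSeq position between Dlk1 and Dio3, in their order along chromosome 12. KO replicates 2 and 3 lie mostly above 0 along the interval, at a median of 1.27 and 1.25 for the miRNAs listed by name, while KO replicate 1 lies about 0, at a median of -0.08.

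Summed over the miRNAs listed by name, the interval gave 4314, 4413 and 4166 CPM in WT and 5080, 11322 and 13727 CPM in KO at P3. The highest sum in the line was in a WT library of another age, as WT replicate 1 at P1 reached 33047 CPM against 6075 and 5391 CPM in the other WT libraries. At P7 the sums were 4678 to 5650 CPM in WT and 4031 to 5883 CPM in KO, and in the Pkd2 line at P3 they were 5472 to 6841 CPM in WT and 5675 to 8203 CPM in KO. Median log2 fold changes of the list were 1.11 at P3, -0.88 at P1, 0.13 at P7 and 0.19 in the Pkd2 line at P3. With KO replicates 2 and 3 left out, the median at P3 was -0.25.

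The lists of muscle and of the miR-290/295 cluster were also higher in KO replicates 2 and 3. Those of neural and liver miRNAs were higher by their median log2 fold change, with sums that overlapped between the groups. All 7 tested muscle miRNAs were higher, none with an unadjusted p under 0.05, with a median log2 fold change of 1.02, and their sum was 16.2 to 42.7 CPM in WT and 28.9, 79.2 and 66.9 CPM in KO. The WT library that was highest for the Dlk1-Dio3 interval at P1 also had the highest muscle sum, 1349 CPM. The 4 tested miRNAs of the miR-290/295 cluster, known from pluripotent and germ cells, were higher with a median of 1.80, and miR-295-3p measured 0.364, 0.175 and 0.581 CPM in WT and 0.535, 3.26 and 3.31 CPM in KO (log2 fold change 2.55, SE 0.74). Of 10 neural miRNAs, 6 were higher, 2 of them with an unadjusted p under 0.05 against 7.08% of all miRNAs. The median of the neural list was 0.47, or 0.00059 without KO replicate 3. Its sum was 285, 249 and 242 CPM in WT and 208, 259 and 286 CPM in KO. In this list miR-9-5p, the most abundant, went the other way with 231, 201 and 182 CPM in WT and 152, 180 and 174 CPM in KO. Both arms of the liver miRNA miR-122 were higher, with overlapping sums of 1.88, 11.5 and 0.843 CPM in WT and 6.32, 10.1 and 20.4 CPM in KO. With KO replicates 2 and 3 left out, the medians were -0.10 for muscle, -0.39 for miR-290/295 and -0.43 for the neural list, and the part of other tissues in the values of those libraries was not tested.

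**Figure D4:**
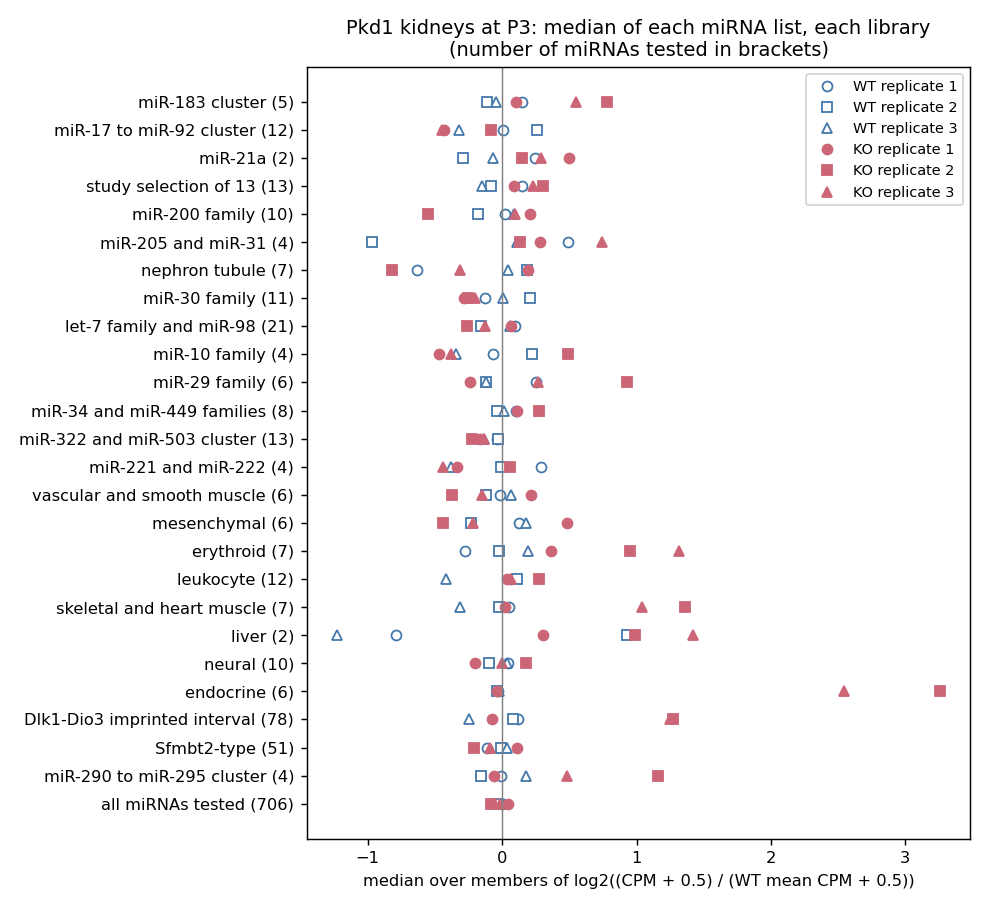
Median over the tested members of each miRNA list of the log2 ratio of normalised CPM to the WT mean (0.5 CPM added to both), for each WT and KO library of the Pkd1 line at P3, with the number of members in brackets. KO replicates 2 and 3 stand to the right of the other libraries in the endocrine (3.26 and 2.55), muscle (1.36 and 1.04) and Dlk1-Dio3 (1.27 and 1.25) lists, while KO replicate 1 stays near the WT libraries in these 3.

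The lists of kidney epithelium and vessels had medians near that of all miRNAs. miR-192-5p, the tubule miRNA, measured 4295, 6283 and 9192 CPM in WT and 11295, 3736 and 6020 CPM in KO, with a log2 fold change of 0.09 (SE 0.34). Both the highest and the lowest value were those of KO libraries. Of 7 tubule miRNAs tested, 2 were higher and 5 lower, and the list's median was -0.15, or 0.05 with scaling to library totals alone. Lower at an unadjusted p under 0.05 were 2 of them, miR-192-3p and miR-194-2-3p, against 1.98% of all miRNAs. Both were scarce passenger arms, and miR-194-2-3p measured 1.82, 1.97 and 1.95 CPM in WT and 1.41, 0.724 and 1.28 CPM in KO. The miR-30 family, abundant in nephron epithelium, had 9 of 11 members lower with a median of -0.19, none with an unadjusted p under 0.05. Of the miR-200 family, 7 of 10 were higher with a median of 0.07, and its most abundant member miR-200b-3p was lower without overlap, at 1543, 1603 and 1398 CPM in WT and 1330, 1045 and 1326 CPM in KO (log2 fold change -0.30, unadjusted p = 0.073 by edgeR). The vascular and mesenchymal lists had medians of 0.08 and 0.01, the let-7 family one of -0.04 with 18 of 21 members lower, and the miR-322/503 cluster one of -0.07. All the members with a value given here had reads in each of the 6 libraries.

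Among matrix-linked miRNAs, miR-29a-3p, which targets collagens, measured 17.5, 9.95 and 15.9 CPM in WT and 19.2, 34.5 and 46.1 CPM in KO. The groups did not overlap, and the log2 fold change was 1.20 (SE 0.38, adjusted p = 0.382 by edgeR). Of the 6 members of the miR-29 family tested, 5 were higher, 1 with an unadjusted p under 0.05 against 7.08% of all miRNAs. The median of the family was 0.56, or 0.084 without KO replicate 2 and -0.59 with KO replicates 2 and 3 left out. miR-193a was higher in both arms without overlap in the 5p arm, with 0.364, 0.393 and 0.450 CPM in WT and 0.575, 0.603 and 1.38 CPM in KO (log2 fold change 1.12, or 0.45 without KO replicate 3). The 3p arm measured 44.0, 35.5 and 60.6 CPM in WT and 105, 59.0 and 138 CPM in KO, and KO replicate 2 fell just inside the WT range (log2 fold change 1.11).

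The miR-183 cluster, whose hairpins miR-183, miR-96 and miR-182 are transcribed together and are known from sensory cells, was higher in all 5 of its tested members, 3 of them with an unadjusted p under 0.05 against 7.08% of all miRNAs, with a median log2 fold change of 0.50 against 0.02. miR-182-5p measured 3460, 3900 and 3165 CPM in WT and 3760, 6035 and 5128 CPM in KO. KO replicate 1 lay inside the WT range, and the log2 fold change was 0.50 (SE 0.22, adjusted p = 0.491 by edgeR). miR-182-3p, its passenger arm, was below 1 CPM throughout, with 0.308, 0.175 and 0.206 CPM in WT and 0.555, 0.845 and 0.784 CPM in KO (log2 fold change 1.59). miR-183-5p measured 498, 402 and 481 CPM in WT and 490, 591 and 630 CPM in KO (log2 fold change 0.31), and miR-183-3p measured 6.38, 4.15 and 6.11 CPM in WT and 11.4, 6.64 and 12.6 CPM in KO (log2 fold change 0.89). miR-96-5p overlapped widely, with 35.4, 34.8 and 11.2 CPM in WT and 10.6, 74.1 and 12.2 CPM in KO, and its log2 fold change of 0.24 turned to -0.25 with scaling to library totals alone. With KO replicates 2 and 3 left out the median of the cluster was -0.05.

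The 13 miRNAs that the study selected, on these samples, are no independent evidence of direction. Of these, 10 were higher and 3 lower at P3, and the 2 with an unadjusted p under 0.05 were the arms of miR-182. Of all miRNAs, 52.3% were higher by sign and 7.08% were higher at an unadjusted p under 0.05. The median of the 13 was 0.24 against 0.02 for all miRNAs, or between 0.031 and 0.30 with single libraries left out. The lowest of these medians was that without WT replicate 3. The 3 that were lower were miR-221-3p, miR-222-3p and miR-326-3p, with log2 fold changes of -0.22, -0.21 and -0.13. miR-21a-5p, a miRNA raised in many injured and fibrotic tissues, measured 4668, 4046 and 2970 CPM in WT and 3440, 4803 and 4299 CPM in KO. The libraries of the 2 groups were interleaved, and the log2 fold change was 0.10 (SE 0.16). The other arm, miR-21a-3p, measured 34.3, 18.6 and 35.0 CPM in WT and 67.0, 29.2 and 39.8 CPM in KO (log2 fold change 0.63).

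Both arms of a hairpin are cut from the same transcript and offer a second reading of it within the same libraries. Among 221 hairpins with both arms tested, the arms had the same sign in 153 (69.2%). Among the 37 hairpins with an arm at an unadjusted p under 0.05, they had the same sign in 33 (89.2%). Many of these hairpins, such as miR-127, miR-136, miR-341 and miR-431, lie in the Dlk1-Dio3 interval, where 77 of 78 miRNAs tested by position were higher. Agreement of sign was largely given there. The hairpins miR-486a and miR-486b, whose 5p arms share reads, were also counted separately. miR-99b and miR-501 were among those whose arms did not move together in size, as given above for miR-99b-3p and miR-501-5p.

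The KO effect at P3 was then compared with the effects at P1 and P7 in the same line, as the difference of log2 fold changes tested in the fit of 18 libraries. Against P1, 102 miRNAs (14.4%) had an unadjusted p under 0.05 and none an adjusted p under 0.05, with a smallest adjusted p of 0.0799 by edgeR. DESeq2 gave an adjusted p under 0.05 for 35 miRNAs, and edgeR for 20 without KO replicate 1 of P3 and for 26 without WT replicate 3 of P1. That smallest value was reached by miR-144-5p and the miR-486 pair. At P1 miR-144-5p measured 17.2, 20.1 and 18.2 CPM in WT and 9.99, 14.7 and 9.67 CPM in KO, so that every KO library was below every WT library at P1 and above at P3. The difference of effects was 1.76 (SE 0.38), with an adjusted p of 0.0027 by DESeq2. It was 0.00935 by edgeR without KO replicate 1 of P3 and 0.0349 by edgeR without WT replicate 3 of P1. miR-486a-5p measured 3045, 2615 and 2066 CPM in WT and 1586, 1878 and 1600 CPM in KO at P1, and its difference was 1.52 (SE 0.33). The WT level itself was lowest at P3, since WT libraries at P7 had 2087, 1769 and 2446 CPM of miR-486a-5p. The difference of miR-99b-5p was -1.17 (SE 0.30, adjusted p = 0.15 by edgeR), from 2753, 3160 and 3902 CPM in WT and 4359, 3743 and 2920 CPM in KO at P1.

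Against P7, 65 miRNAs (9.21%) had an unadjusted p under 0.05 and 1 (0.142%) an adjusted p under 0.05, miR-21a-5p. At P7 miR-21a-5p measured 6581, 6255 and 6209 CPM in WT and 18502, 16963 and 16497 CPM in KO, all KO libraries lying far above all WT libraries. At P1 it measured 3454, 3895 and 3659 CPM in WT and 3504, 3274 and 3633 CPM in KO. The effect at P3 minus that at P7 was -1.35 (SE 0.23, unadjusted p = 2.98e-05, adjusted p = 0.0211 by edgeR). It lay between -1.52 and -1.20 with single libraries left out, with an adjusted p by edgeR between 0.00662 and 0.183. Leaving out any of WT replicate 1, WT replicate 2 or KO replicate 3 of P3, or any library of P7, brought the adjusted p above 0.05. So did several other settings. These left the difference between -1.36 and -1.25, with an adjusted p by edgeR of 0.0869 without the filter on low counts, 0.133 with only the 12 libraries of these ages and 0.995 with library totals alone. The next 2 were miR-501-3p and miR-99b-5p. miR-501-3p measured 47.4, 50.8 and 27.9 CPM in WT and 67.6, 67.6 and 68.2 CPM in KO at P7, the reverse of the order at P3, and its difference was -2.01 (SE 0.45, adjusted p = 0.143 by edgeR). miR-99b-5p measured 6556, 6129 and 6491 CPM in WT and 8162, 7795 and 7115 CPM in KO at P7, with a difference of -1.27 (SE 0.30, adjusted p = 0.161 by edgeR).

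**Figure D5:**
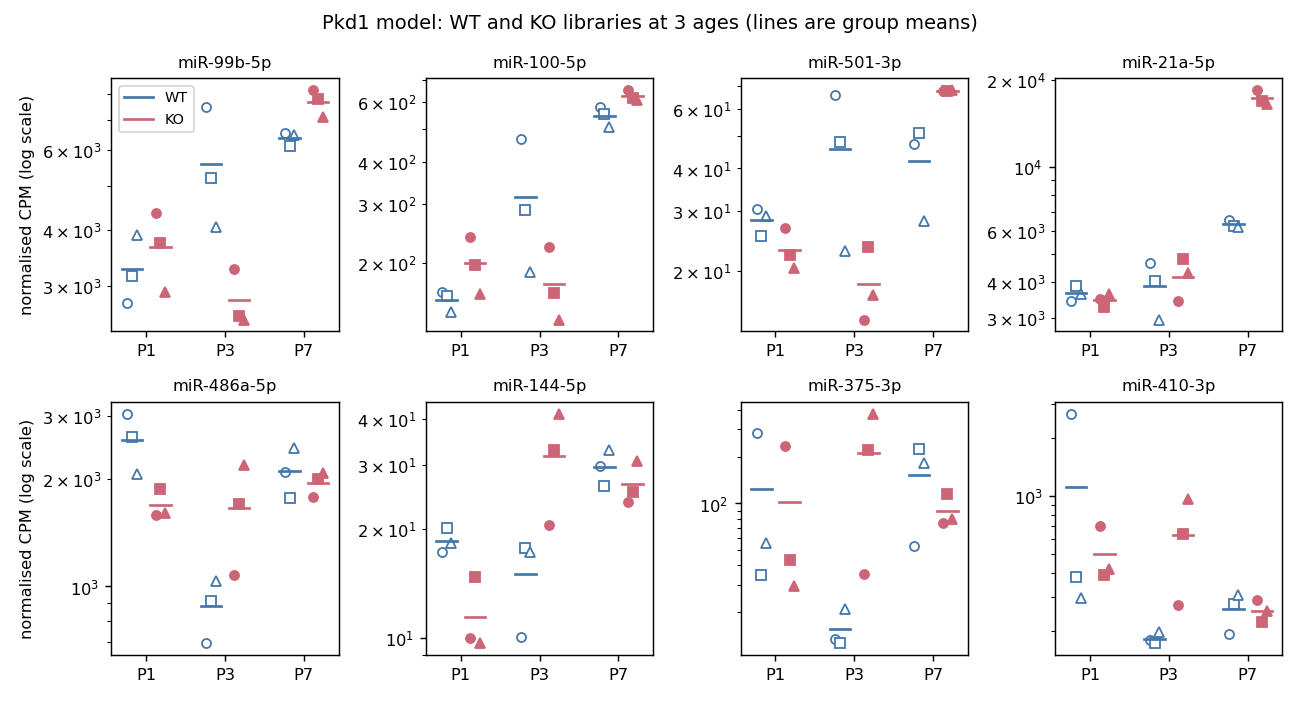
Normalised CPM (log scale) of single miRNAs in the WT (open) and KO (filled) libraries of the Pkd1 line at P1, P3 and P7, with horizontal lines at the group means and marker shapes for replicates 1 (circle), 2 (square) and 3 (triangle). miR-99b-5p is lower in KO without overlap at P3 (2530 to 3272 against 4061 to 7480 CPM), and miR-21a-5p is separated at P7 (16497 to 18502 against 6209 to 6581 CPM) but not at P3.

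The Pkd2 line, in which Pkd2 is deleted by the same Cre, was sequenced at P3 as well, and both lines were fitted together over 775 miRNAs. No miRNA had an adjusted p under 0.05 for the difference between the Pkd1 and Pkd2 effects at P3 by edgeR or DESeq2, and 39 (5.03%) had an unadjusted p under 0.05 by edgeR. The smallest adjusted p was 0.407 by edgeR, shared by miR-99b-5p, miR-100-5p, miR-26a-2-3p, miR-375-3p and miR-7653-3p. In the Pkd2 line at P3 miR-99b-5p measured 3403, 2483 and 2670 CPM in WT and 2767, 2937 and 4089 CPM in KO, and the Pkd1 effect minus the Pkd2 effect was -1.22 (SE 0.31). Those differences were -1.25 for miR-100-5p, -1.01 for miR-26a-2-3p and -1.79 for miR-7653-3p. For miR-375-3p the difference was in the other direction, at 3.87 (SE 1.17). Without WT replicate 3 of the Pkd1 line, miR-99b-5p and miR-100-5p both had an adjusted p of 0.0384 by edgeR.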

How the data were processed

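Total RNA of kidneys was used for small RNA libraries. The authors trimmed the 3′ adaptor, discarded reads of 17 bases or fewer, and mapped and counted the rest with miRDeep2 (version not given in the sources used here) against miRBase release 21 and mouse build mm10; the submitters' processing notes also list CASAVA 1.8.2 and HTSeq. The deposited values are raw read counts, unfiltered and not normalised, in 2061 rows of a miRNA and a hairpin. For the 83 miRNAs with several hairpins the row with the highest total over 36 libraries was used, since such rows mostly repeat the same reads. All other values were computed from these counts.

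The 18 libraries of the Pkd1 line were fitted together with 1 term per group of age and genotype, with edgeR 4.0.16 in R 4.3.3 (TMM factors, quasi-likelihood test, Benjamini-Hochberg adjustment over 706 miRNAs), which shares the estimate of spread over 6 groups. Filtered miRNAs held at most 0.00698% of the reads of a library. Of those kept, 27 passed in exactly 3 libraries, with a median highest count of 20, and 40 with exactly 2 such libraries (median 13) were left out. The Pkd2 values come from a fit of 36 libraries. DESeq2 1.42.0 was an alternative. The steps were tested on simulated counts with log2 changes of 2 and 3 in either direction. Of these, 79 of 90 and 100 of 100 were recovered, with 9 false calls among 490 unchanged miRNAs. Smaller changes were not simulated, so the test does not show how many of them would be missed. Wilson 95% intervals of read shares were at most 0.0444 percentage points wide and cover counting error only, as reads have no molecular identifiers.

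The miRNAs and lists were chosen with earlier results of these data known. Named are the study's 13 miRNAs, up to 12 with the smallest p in each direction with a mean of at least 10 counts, an unadjusted p under 0.05 and no overlap (28 higher and 11 lower were eligible), abundant miRNAs, abundant or defining list members, the smallest p of each difference, and other arms. miR-99a-5p, miR-7a-1-3p, miR-409-5p, miR-532-5p and miR-295-3p were named after their values were seen. List medians are descriptions, with no test. Alternatives were other scalings, no low-count filter, summed hairpin rows, only the contrast's libraries, the miR-10 share as a covariate, a replicate block and each library left out. KO replicates 2 and 3 were left out together after the data were seen.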

Additional observations from a re-analysis of the deposited data

Results flagged for a closer look

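miR-21a-5p stood out because the effect of the knockout differed between ages in a test of the difference itself: the log2 fold change at P3 minus that at P7 was -1.35. It was 0.10 at P3, where the libraries of KO and WT were interleaved, and 1.45 at P7, where all 3 KO libraries lay above all 3 WT libraries. The adjusted p was 0.0211 by edgeR over 706 miRNAs. By edgeR it was also under 0.05 with KO replicates 2 and 3 of P3 left out together (0.0206), but it was 0.0869 without the filter on low counts, 0.133 with only the libraries of these ages and 0.995 with library totals. With single libraries left out it reached 0.183, and it was above 0.05 without any library of P7 and without WT replicate 1, WT replicate 2 or KO replicate 3 of P3.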

How the results depend on the processing

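For KO against WT at P3, the number with an adjusted p under 0.05 was 0 with edgeR, 4 with DESeq2, 2 with a replicate block (miR-202-5p and miR-7b-5p) and between 0 and 7 with single libraries left out. The number with an unadjusted p under 0.05 was 26 with library totals, 105 without the count filter (1495 miRNAs tested) and 28 to 117 with single libraries left out, and the study's criterion took 24, 89 and 15 to 91. For P3 minus P1 the adjusted numbers were 35 with DESeq2, 6 without the filter, 5 with the replicate block and 0 to 26 with single libraries left out (26 without WT replicate 3 of P1, 20 without KO replicate 1 of P3), and the unadjusted ones were 55 with library totals, 25 without KO replicates 2 and 3, and 72 to 173. For P3 minus P7 the adjusted numbers were 0 with library totals, without the filter and with the contrast's libraries only, 12 with DESeq2, 2 with the miR-10 share, 2 with the replicate block (miR-21a-5p not among them, -1.33 with an adjusted p of 0.123 by edgeR) and 0 to 3 with single libraries left out, and the unadjusted one was 19 with library totals and 47 to 92. For the difference between lines, the adjusted number was 0 to 2 with single libraries left out, and the unadjusted ones were 8 with library totals, 68 without the filter, 73 with the miR-10 share, 18 without KO replicates 2 and 3, and 27 to 75. The difference in miR-10 share ran from -16.9 to 7.36 points with single libraries left out.

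Of the 48 miRNAs followed, the sign changed in other settings for miR-96-5p (-0.25 with library totals, -0.15 with the block), miR-10a-5p (-0.25 and -0.19) and miR-19b-3p (-0.12 with the block). With single libraries left out, log2 fold changes ran from -1.25 to 0.66 for miR-96-5p, -1.11 to 0.58 for miR-10a-5p, -1.11 to 1.22 for miR-10b-5p, -2.60 to 2.72 for miR-19b-3p and -0.13 to 0.25 for miR-21a-5p. Without KO replicates 2 and 3, 10 changed sign: miR-451a (-0.69), miR-7a-5p (-0.83), miR-182-5p (-0.055), miR-183-5p (-0.061), miR-96-5p (-1.51), miR-666-5p (-0.34), miR-21a-5p (-0.33), miR-10a-5p (-1.49), miR-10b-5p (-1.60) and miR-19b-3p (-2.91). The causes were not tested. Of 25 list medians, 13 changed sign in that setting. Whether the replicate numbers pair the samples is not known from the labels. Deviations from the group means correlated at -0.28, 0.49 and 0.22 for the same numbers at P3, where KO replicate 1 correlated best with WT replicate 3. For the same numbers they correlated at 0.51, 0.39 and 0.01 at P1 and at -0.03, -0.28 and -0.40 at P7. The 12569939 reads of KO replicate 2 limit scarce miRNAs most, with a floor of 0.362 CPM.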

Other observations

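The 10 most abundant miRNAs of the 6 libraries were, in order, miR-10a-5p, miR-10b-5p, miR-30a-5p, miR-181a-5p, miR-143-3p, miR-26a-5p, miR-27b-3p, miR-30e-5p, miR-22-3p and miR-30c-5p. Their log2 fold changes at P3 lay between -0.32 and 0.74, and the smallest unadjusted p among them was 0.204 by edgeR. miR-10a-5p measured 221238, 315679 and 116194 CPM in WT and 86740, 535699 and 115544 CPM in KO, and miR-145a-5p, a smooth muscle miRNA, measured 1107, 1909 and 231 CPM in WT and 237, 5090 and 282 CPM in KO. In both, WT replicates 1 and 2 and KO replicate 2 were the high libraries. miR-215-5p, which shares its seed with miR-192-5p, measured 1.59, 7.12 and 1.46 CPM in WT and 1.63, 30.9 and 1.66 CPM in KO.

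Of 51 miRNAs of the Sfmbt2-type families, known from placenta, 33 were lower and 18 higher in KO, 11 were lower without overlap where 5.24% of all miRNAs were, and none had an unadjusted p under 0.05, with a median log2 fold change of -0.04. Several members had identical values, such as miR-297a-3p, miR-297b-3p and miR-297c-3p at -0.41 each. These counts are therefore not counts of separate miRNAs. The 8 tested miRNAs of the miR-34 and miR-449 families had a median of 0.26 with 7 higher, those of miR-205 and miR-31 one of 0.49 with 4 of 4 higher, and those of miR-221 and miR-222 one of 0.01. miR-31-5p measured 38.3, 22.5 and 39.0 CPM in WT and 65.8, 36.1 and 82.5 CPM in KO, with KO replicate 2 inside the WT range (log2 fold change 0.89, unadjusted p = 0.069 by edgeR).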
